A study of Mus musculus with 12 samples.

Results

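The 10 genes of heme breakdown and heme transport described here were followed in mouse colonoids, organoids grown from colonic epithelial stem cells. They were taken by symbol from the 54532 genes of the expression table, and each of the 10 symbols matched 1 row. The members are the heme oxygenases Hmox1 and Hmox2, the biliverdin reductases Blvra and Blvrb, and the heme transporter Slc48a1. The others are the exporters Flvcr1 and Abcg2, the related carrier Flvcr2, the heme-binding protein gene Pgrmc1, and Slc46a1. Slc46a1 encodes a folate transporter that was first described as a heme carrier. Control colonoids came from C57BL/6 mice with floxed Hmox1 alleles (Hmox1 fl/fl), aged 8 to 12 weeks. Colonoids labelled KO (Hmox1ΔIEC) came from mice of the same age with the same floxed alleles and Vil1-Cre, a Cre recombinase driven by the villin promoter in villus and crypt epithelium. Each genotype was given vehicle or 200 µM hemin, the ferric chloride form of heme, for 24 hours in conditioned enteroid medium. Poly-A RNA was sequenced from 3 libraries in each of 4 groups. No source used here says whether the 3 libraries of a group came from separate mice or cultures, so p-values measure the spread between these libraries, which may be technical. For replicate 3 of the hemin-treated colonoids labelled KO, the genotype label gives the floxed alleles with Vil1-Cre and does not name a KO.

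Heme is broken down by heme oxygenases, which open the porphyrin ring with electrons from cytochrome P450 reductase and release ferrous iron, carbon monoxide and biliverdin. HMOX1 is the inducible enzyme, HMOX2 the constitutive one, and biliverdin reductases convert biliverdin to bilirubin. Heme also moves between compartments: SLC48A1 takes it out of lysosomes into the cytosol, FLVCR1 and ABCG2 have been described as exporters of heme and porphyrins, and PGRMC1 binds heme in internal membranes. In the colon, epithelium meets heme from blood and from the diet.

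Promoter sequences are shown for the members that held the letters TGACNNNGC on either strand, the core of the antioxidant response element that NRF2 or BACH1 binds together with small MAF proteins. RefSeq windows of 250 bases before a transcript start (build GRCm38.p6) were available for 8 of the 10 members, in 13 windows. Hmox1 and Slc48a1 had no entry. The core occurred in 3 of the 13 windows, 1 each of Flvcr1, Pgrmc1 and Blvra, and in 10.2% of all 32851 windows. The E-box letters CACGTG, sought as a second motif, occurred in a window of Flvcr2 alone among the members and in 6.02% of all windows. Capitals mark the TGACNNNGC match. The Flvcr1 window is chr1:191026191-191026440 on the minus strand, the Pgrmc1 window is chrX:36597943-36598192 on the plus strand and the Blvra window is chr2:127070407-127070656 on the plus strand. All read 5′ to 3′ towards the start.
Flvcr1: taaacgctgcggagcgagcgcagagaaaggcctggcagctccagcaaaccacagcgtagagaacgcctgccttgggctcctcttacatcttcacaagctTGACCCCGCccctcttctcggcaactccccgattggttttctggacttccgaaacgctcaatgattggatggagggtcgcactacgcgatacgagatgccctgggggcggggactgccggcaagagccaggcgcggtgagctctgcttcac
Pgrmc1: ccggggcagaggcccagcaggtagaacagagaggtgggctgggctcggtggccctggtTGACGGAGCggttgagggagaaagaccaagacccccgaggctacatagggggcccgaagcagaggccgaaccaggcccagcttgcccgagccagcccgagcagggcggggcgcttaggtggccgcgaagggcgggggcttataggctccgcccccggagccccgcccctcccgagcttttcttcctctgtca
Blvra: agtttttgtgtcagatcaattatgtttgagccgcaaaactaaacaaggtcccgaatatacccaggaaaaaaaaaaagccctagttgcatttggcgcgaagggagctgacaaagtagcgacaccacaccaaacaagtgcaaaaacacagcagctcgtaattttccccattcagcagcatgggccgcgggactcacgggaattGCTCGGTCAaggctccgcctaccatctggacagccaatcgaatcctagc
The first base of the match lay at -151 in Flvcr1, -192 in Pgrmc1 and -49 in Blvra, counted from the start. In Blvra the match is on the opposite strand, so its capitals read as the reverse complement. Flvcr1 and Pgrmc1 rose with hemin and Blvra fell, as given below, so the same letters stood before genes of both directions. A match is a run of letters and not a measured binding site.

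The unit is FPKM, the fragments on a gene per kilobase of its length, scaled to the size of the library, which can be compared between genes. Differences are given as log2 differences between group means of log2(FPKM + 1) from limma, with 1 fit over 12 libraries and Benjamini-Hochberg adjustment over 12740 genes, those that reached 1 FPKM in 3 or more libraries. On this scale the differences of low genes are understated. A gene passed at an adjusted p under 0.05. Of the 10 members, 9 entered the test, and all 9 were at or above 1 FPKM in each of the 12 libraries, so none entered through 1 group alone. Flvcr2 was below the filter.

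The libraries held 11648801 to 25101868 fragments on genes, and hemin-treated controls were the shallowest group. In these bulk libraries, fewer cells of a type and less RNA per cell cannot be told apart. The 6 epithelial markers were present in every library, with a summed level of 5022 to 9067 FPKM. With hemin 3 of them rose in controls and 6 in those labelled KO, with medians of 0.25 and 0.78, and the interaction passed as higher for 4, with a median of 0.49, where 23.2%, 29.9% and 13.3% of all genes passed as higher. Their part in the results of the members was not tested. Between genotypes with vehicle 3 of the 6, Krt8, Krt19 and Cdx2, were lower in the colonoids labelled KO (16.8% of all genes), with differences of -0.71, -0.78 and -2.03, a list median of -0.46 and sums of 5022 to 5069 FPKM against 7312 to 8159 FPKM in controls. With hemin the difference was -1.27 for Cdx2, an intestinal transcription factor, and 0.20 for Cdh1, and the other 4 did not pass. Erythroid markers reached at most 8 fragments, endothelial ones at most 14, and the myeloid genes Ptprc, Adgre1 and Lyz2 at most 6, with Csf1r at most 17 and Cd68 at most 114. The 6 myeloid markers summed to 27.9 to 32.5 FPKM without and 8.88 to 12.9 FPKM with hemin in controls, and to 47.0 to 53.5 and 21.8 to 23.6 FPKM in those labelled KO. Cd14 made up most of these sums and differed between genotypes by 0.82 with vehicle and 1.24 with hemin. Cd68, the only other one tested, differed the opposite way with vehicle, by -0.82 (limma adjusted p = 0.022), and by -0.05 with hemin (limma adjusted p = 0.88), and it rose by 1.14 with hemin in those labelled KO (limma adjusted p = 0.0018). The 6 fibroblast markers summed to 0.452 to 2.17 FPKM. Col1a2 and Dcn were at 0 in each library, Col1a1 and Pdgfra reached at most 4 and 9 fragments, Vim reached at most 66, and Pdgfrb had 41 to 120. The distal colon genes Hoxb13 and Hoxd13 were at 0 fragments in the 6 control libraries and at mean levels of 109.9 FPKM and 59.1 FPKM in the vehicle-treated colonoids labelled KO. The genotype label therefore cannot be told apart from colon region or from other differences between the 2 sets of colonoids. This holds for each genotype comparison and interaction below. Replicate 3 of the hemin-treated controls stood apart from replicates 1 and 2 in several members, and results that change without it are given both ways. Gm23935, a gene outside the lists named for its share of the libraries, held 16.8%, 29.0% and 21.0% of the FPKM sum in replicate 1 of the vehicle-treated controls, replicate 1 of the hemin-treated controls and replicate 2 of the hemin-treated colonoids labelled KO. Over all genes, chi-square per degree of freedom between the fragments of replicates was 17.4 and 18.3 for the first of these libraries against its partners and 28.9 and 30.6 for the last, while the partners differed from each other by 2.56 and 3.51. In the hemin-treated controls the 3 pairs gave 22.8 to 43.1.

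With hemin, most of the members changed in both genotypes. In control colonoids 8 of the 9 tested members passed, 6 higher and 2 lower, against 49.9% of all genes tested (23.2% higher and 26.7% lower). Without replicate 3 of the hemin-treated controls 7 were higher and 1 lower, with Blvrb in and Slc46a1 out (56.6% of all genes in that fit). Those labelled KO had 7 members past the test, of which 6 were higher and 1 lower, against 60.4% of all genes (29.9% higher and 30.4% lower). With an absolute log2 difference above 1 in addition, 1 member remained in controls (8.11% of all genes) and 3 in the colonoids labelled KO (12.9%). The median log2 difference of the tested members was 0.50 in controls and 0.56 in those labelled KO, while the median over all genes tested was -0.01 and -0.00. The libraries of vehicle and hemin did not overlap for 8 of the 9 tested members in controls, all but Blvrb, and for 8 in those labelled KO, all but Slc46a1, against 52.4% of all tested genes in controls and 74.4% in those labelled KO.

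**Figure D1:**
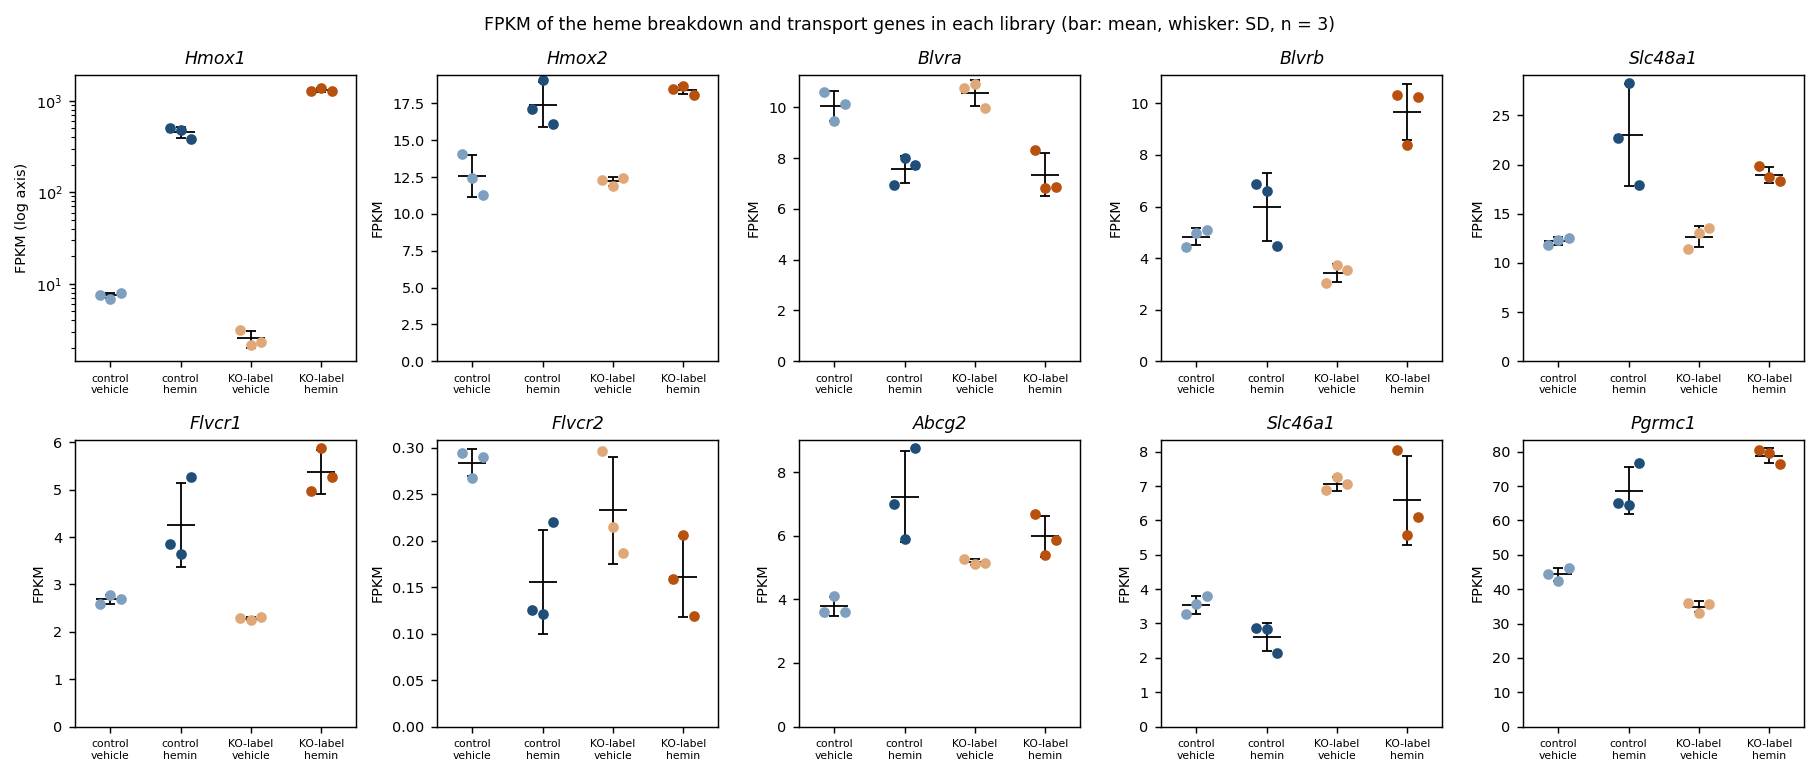
FPKM of the 10 members in each library (points), with the group mean and SD (n = 3); the axis of Hmox1 is logarithmic and the others start at 0. Hmox1 spans 2.11 to 1393 FPKM, while Flvcr2 stays below 0.3 FPKM in each of the 12 libraries.

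Hmox1 (ENSMUSG00000005413, chr8:75093621-75100589, plus strand, mm10), the inducible heme oxygenase and the gene targeted in these mice, was detected in every library. Vehicle-treated controls held 7.62, 6.85 and 7.90 FPKM, and vehicle-treated colonoids labelled KO held 3.14, 2.11 and 2.31 FPKM. With hemin, the levels were 503, 483 and 382 FPKM in controls and 1279, 1393 and 1271 FPKM in the colonoids labelled KO. None of the 4 groups overlapped: the colonoids labelled KO were the lowest with vehicle and the highest with hemin. The Hmox1 level thus went against the KO label under hemin, while FPKM of whole genes does not show which exons were read. Directions by genotype below refer to the label.

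The rise with hemin was 61.2-fold in controls by the ratio of group means, and 5.75 on the log2 scale (SE 0.12, limma adjusted p = 2.5e-10). In the colonoids labelled KO it was 521-fold and 8.55 on the log2 scale (SE 0.12, limma adjusted p = 7.1e-12). The difference between these 2 responses, the interaction, was 2.81 (SE 0.17, limma adjusted p = 1.8e-06). Between genotypes, Hmox1 was 2.96-fold lower in the colonoids labelled KO with vehicle (limma adjusted p = 1.2e-05) and 2.88-fold higher with hemin (limma adjusted p = 3.3e-06). The fragments behind the values numbered 190 to 220 per library in vehicle-treated controls and 64 to 90 in vehicle-treated colonoids labelled KO. With hemin they numbered 7821 to 10042 in controls and 31925 to 57369 in those labelled KO. In rank among all 54532 genes of a library, Hmox1 moved from between 5963 and 6434 to between 59 and 87 in controls, and from between 9084 and 10147 to between 22 and 25 in those labelled KO.

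Hmox2 (ENSMUSG00000004070, chr16:4726361-4766742, plus strand), the constitutive oxygenase, rose in both genotypes, far less than Hmox1. It stood at 14.1, 12.4 and 11.3 FPKM in vehicle-treated controls and at 17.1, 19.1 and 16.1 FPKM with hemin. The colonoids labelled KO held 12.3, 11.9 and 12.5 FPKM with vehicle and 18.5, 18.7 and 18.1 FPKM with hemin. Every hemin library lay above every vehicle library of its genotype, and the genotypes overlapped. The rise was 0.44 on the log2 scale in controls (SE 0.08, limma adjusted p = 0.00093) and 0.56 in those labelled KO (SE 0.08, limma adjusted p = 0.00013). The interaction of 0.11 did not pass, with a 95% confidence interval from -0.14 to 0.37. Both rises lost the threshold when FPKM was rescaled to a fixed sum (TPM), with 0.27 (adjusted p = 0.24) in controls and 0.25 (adjusted p = 0.25) in those labelled KO. Hmox2 shares 892 exon bases, 40.2% of its exon length, with Cdip1 on the opposite strand, which reached 6.68 FPKM, and no source used here states whether reads were counted by strand.

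Hmox1 therefore took a different share of the heme oxygenase FPKM in each group. FPKM of the whole gene does not show whether the Hmox1 transcripts of those labelled KO still encode the enzyme. Of the summed FPKM of Hmox1 and Hmox2 it held 37.3% ± 3.40 (SD, n = 3) in vehicle-treated controls and 17.0% ± 2.89 in vehicle-treated colonoids labelled KO. With hemin the share was 96.3% ± 0.381 in controls and 98.6% ± 0.0523 in those labelled KO. The groups did not overlap in any of the 4 pairwise comparisons. With 3 libraries against 3, the exact two-sided permutation test gave p = 0.1 for each, the smallest value that this design allows.

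The 2 biliverdin reductase genes moved in opposite directions with hemin in the colonoids labelled KO, while in controls Blvra fell and Blvrb did not pass. Blvra (ENSMUSG00000001999, chr2:127070665-127097084, plus strand) encodes the main biliverdin reductase. It fell from 10.6, 9.45 and 10.1 FPKM to 6.95, 7.99 and 7.73 FPKM with hemin in controls. In those labelled KO it fell from 10.8, 10.9 and 9.98 FPKM to 8.32, 6.83 and 6.87 FPKM. Each hemin library lay below each vehicle library, and the genotypes overlapped. The log2 difference was -0.37 in controls (SE 0.08, limma adjusted p = 0.0033) and -0.47 in those labelled KO (SE 0.08, limma adjusted p = 0.00049). The interaction was -0.10, with a 95% confidence interval from -0.36 to 0.15, and did not pass.

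Blvrb (ENSMUSG00000040466, chr7:27447978-27466144, plus strand), the second reductase, which also reduces flavins, rose in the colonoids labelled KO. There it went from 3.03, 3.72 and 3.52 FPKM with vehicle to 10.3, 8.40 and 10.2 FPKM with hemin. The controls held 4.45, 4.98 and 5.07 FPKM with vehicle and 6.87, 6.60 and 4.46 FPKM with hemin. Replicate 3 of the hemin-treated controls lay at the level of the vehicle libraries, and the 2 others lay above them. The log2 difference was 1.26 in those labelled KO (SE 0.14, limma adjusted p = 1.3e-05), a 2.82-fold ratio of means. In controls it was 0.24 (95% confidence interval -0.06 to 0.54, limma adjusted p = 0.16). The difference between the responses was 1.02 (SE 0.19, limma adjusted p = 0.0029). Without replicate 3 of the hemin-treated controls, the control response became 0.41 (adjusted p = 0.005) and the interaction 0.86 (adjusted p = 0.00071).

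Between genotypes, Blvrb was 1.41-fold lower in the colonoids labelled KO with vehicle (limma adjusted p = 0.041) and 1.62-fold higher with hemin (limma adjusted p = 0.0043). The first of these calls was lost in 12 of 22 other settings, with adjusted p-values of up to 0.31. Blvrb made up 32.5% ± 2.62 (SD, n = 3) of the summed FPKM of both reductases in vehicle-treated controls, 43.8% ± 6.67 in hemin-treated controls, 24.5% ± 2.19 in vehicle-treated colonoids labelled KO and 56.8% ± 2.67 in hemin-treated ones. It thus exceeded Blvra in each of the 3 hemin-treated libraries labelled KO and in none of the other 9. The summed oxygenase FPKM was 1.35 ± 0.0897 times the summed reductase FPKM in vehicle-treated controls and 1.06 ± 0.0889 times in vehicle-treated colonoids labelled KO. With hemin it was 34.9 ± 2.50 times in controls and 79.2 ± 11.99 times in those labelled KO. For Hmox1 this is FPKM of the whole gene, with the limit given above. The exact permutation p was 0.1 for both ratios in each comparison, the smallest possible.

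**Figure D2:**
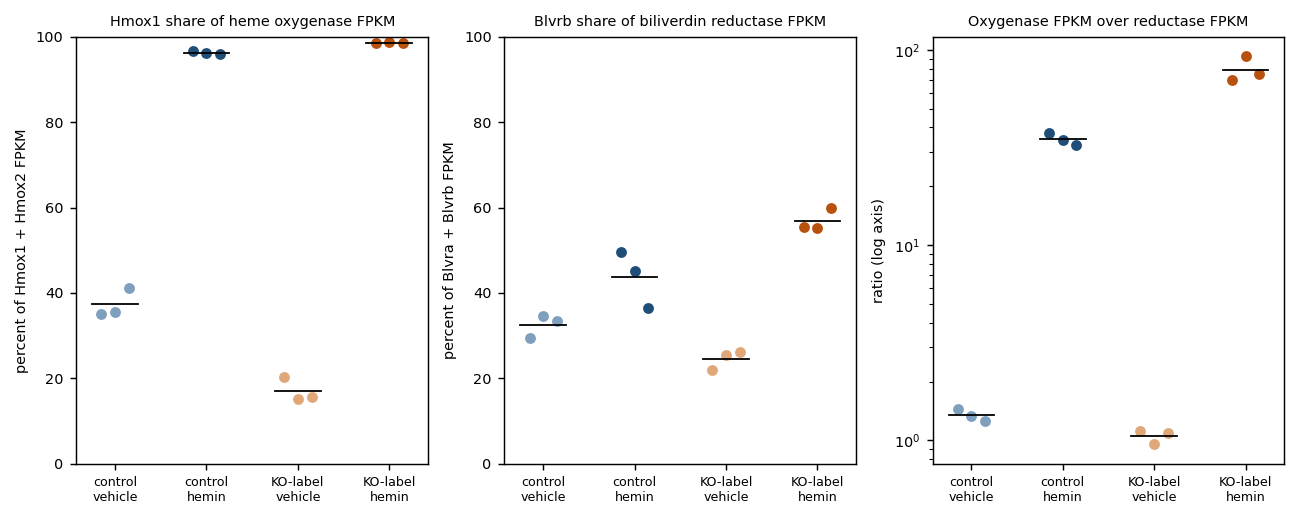
Share of Hmox1 in the FPKM of both oxygenases, share of Blvrb in the FPKM of both reductases, and the ratio of oxygenase to reductase FPKM (log axis), with 1 point per library and a line at the mean of 3. Hemin libraries lie above vehicle libraries in each panel, and the Blvrb share passes 50% in the hemin-treated libraries labelled KO, which span 55.2% to 59.9%.

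Slc48a1 (ENSMUSG00000081534, chr15:97778520-97792692, plus strand), which moves heme from the lysosome to the cytosol, rose in both genotypes. The controls held 11.8, 12.3 and 12.5 FPKM with vehicle and 22.8, 28.3 and 18.0 FPKM with hemin. Those labelled KO held 11.4, 13.1 and 13.5 FPKM with vehicle and 19.8, 18.7 and 18.3 FPKM with hemin. Vehicle and hemin did not overlap in either genotype, and the hemin-treated controls were the widest group. The rise was 0.84 on the log2 scale in controls (SE 0.13, limma adjusted p = 0.00029) and 0.55 in those labelled KO (SE 0.13, limma adjusted p = 0.0035). The interaction of -0.29 did not pass (95% confidence interval -0.69 to 0.11, limma adjusted p = 0.29), but it was -0.45 (adjusted p = 0.017) without replicate 3 of the hemin-treated controls. The same omission gave a hemin-treated genotype difference of -0.40 (adjusted p = 0.0054), against -0.24 with all libraries (limma adjusted p = 0.17). Under TPM, the rise in those labelled KO was 0.24 (adjusted p = 0.37), and it passed with Gm23935 left out of the sum.

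Slc46a1 (ENSMUSG00000020829, chr11:78465697-78472059, plus strand) encodes the proton-coupled folate transporter, first described as a heme carrier of the gut. Its levels separated by genotype more than by treatment. The controls held 3.29, 3.55 and 3.80 FPKM with vehicle and 2.87, 2.83 and 2.14 FPKM with hemin. Those labelled KO held 6.87, 7.27 and 7.06 FPKM with vehicle and 8.05, 5.59 and 6.11 FPKM with hemin. All 6 libraries labelled KO lay above all 6 controls. The genotype difference was 0.83 with vehicle (SE 0.12, limma adjusted p = 0.00025), a 1.99-fold ratio of means, and 1.06 with hemin (SE 0.12, limma adjusted p = 4.2e-05), a 2.52-fold ratio.

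The fall of Slc46a1 with hemin in controls, -0.34 (SE 0.12, limma adjusted p = 0.036), did not hold in 9 of 21 other settings and was -0.24 (adjusted p = 0.1) without replicate 3 of the hemin-treated controls. In those labelled KO the difference was -0.10 (95% confidence interval -0.36 to 0.16). Beside the genotype difference stand the 4 distal colon Hox genes. Hoxa13 was higher in the colonoids labelled KO by 1.81 with vehicle and by 1.77 with hemin (limma adjusted p = 5.3e-08 and 6.8e-08), where 17.4% and 19.7% of all genes passed as higher. Hoxb13 and Hoxd13 entered the test through the groups labelled KO alone, and Hoxd12 was not tested. The summed level of the 4 genes was 6.91 to 13.9 FPKM in controls and 194 to 208 FPKM in those labelled KO. Their part in the Slc46a1 result was not tested.

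**Figure D3:**
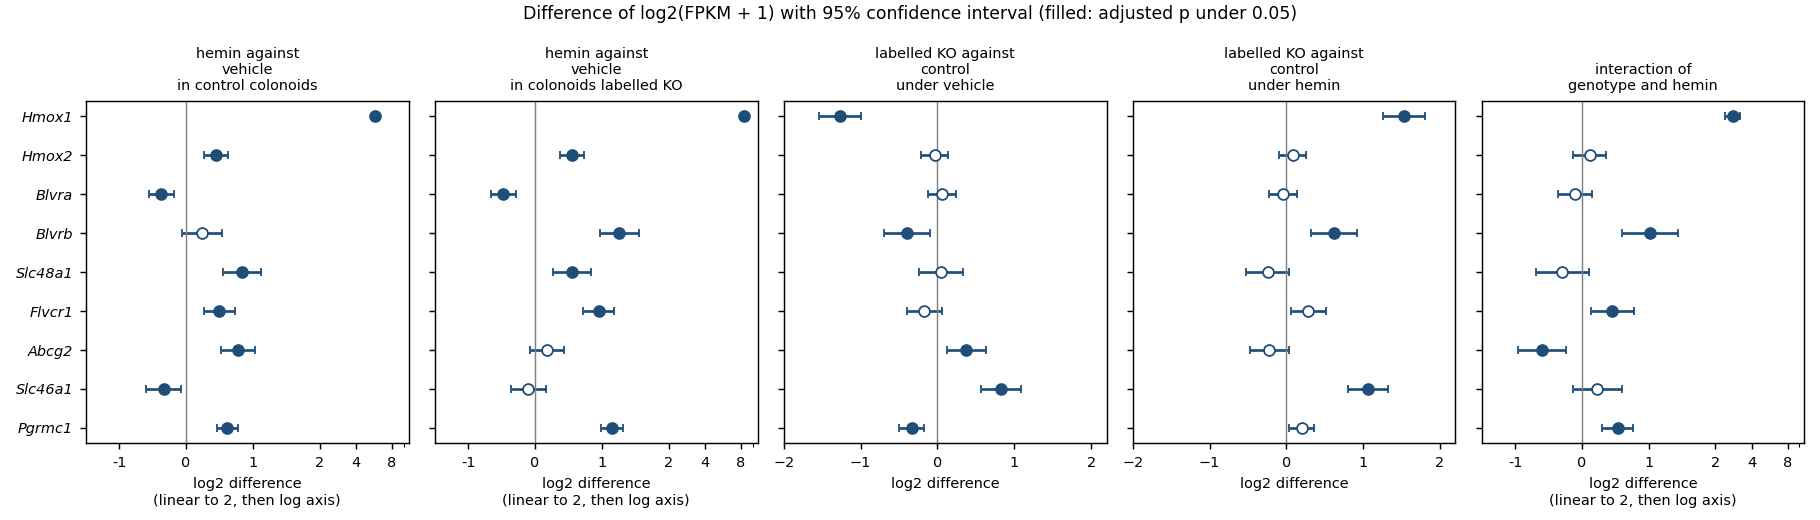
Log2 differences of the 9 tested members in 5 comparisons, with 95% confidence intervals; filled points passed at an adjusted p under 0.05, and the axes of the hemin and interaction panels are linear up to 2 and logarithmic beyond. Hmox1 is past 5 in both hemin panels, Blvra lies left of 0 in both, and Slc46a1 lies right of 0 in both genotype panels.

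Flvcr1 (ENSMUSG00000066595, chr1:191005847-191026158, minus strand), described as a heme exporter and also a choline transporter, rose in both genotypes. The controls went from 2.59, 2.78 and 2.70 FPKM to 3.86, 3.64 and 5.26 FPKM with hemin. Those labelled KO went from 2.28, 2.25 and 2.31 FPKM to 4.96, 5.87 and 5.26 FPKM. Hemin libraries lay above vehicle libraries throughout, and replicate 3 of the hemin-treated controls reached the range of the hemin-treated colonoids labelled KO. The log2 difference was 0.50 in controls (SE 0.10, limma adjusted p = 0.0022) and 0.96 in those labelled KO (SE 0.10, limma adjusted p = 1.5e-05), or 1.58-fold and 2.36-fold by means. The control rise was 0.41 (adjusted p = 0.13) under TPM.

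With vehicle, the genotype difference of Flvcr1 was -0.17 (limma adjusted p = 0.25), and it passed with the same value (adjusted p = 0.045) when replicate 3 of the hemin-treated controls was left out of the shared fit. The interaction of Flvcr1 was 0.46 (SE 0.15, limma adjusted p = 0.045). This call was lost in 15 of 20 other settings, among them 11 of the 12 that leave out 1 library, with adjusted p-values of up to 0.49. The exception among the omitted libraries was replicate 3 of the hemin-treated controls, without which the interaction was 0.59 (adjusted p = 0.00084) and the hemin-treated genotype difference rose from 0.29 (limma adjusted p = 0.054) to 0.42 (adjusted p = 0.00074). An antisense transcript, A230020J21Rik, shares 15.6% of the Flvcr1 exon length and stayed at or below 0.0773 FPKM.

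Abcg2 (ENSMUSG00000029802, chr6:58584523-58695676, plus strand), an efflux pump for porphyrins and many drugs, rose in controls. It went from 3.61, 4.12 and 3.61 FPKM with vehicle to 7.01, 5.91 and 8.76 FPKM with hemin. Those labelled KO held 5.28, 5.12 and 5.14 FPKM with vehicle and 6.69, 5.40 and 5.86 FPKM with hemin. Vehicle-treated colonoids labelled KO lay between both control groups. The rise in controls was 0.77 on the log2 scale (SE 0.11, limma adjusted p = 0.00024), a 1.91-fold ratio of means. In those labelled KO the difference was 0.17 (95% confidence interval -0.08 to 0.43, limma adjusted p = 0.22), and it turned to -0.13 (adjusted p = 0.64) under TPM. The interaction of -0.60 passed (SE 0.16, limma adjusted p = 0.022), was -0.47 (adjusted p = 0.014) without replicate 3 of the hemin-treated controls, and did not pass in 4 of 21 other settings. With vehicle, Abcg2 was 1.37-fold higher in those labelled KO (limma adjusted p = 0.028), a call lost in 7 of 22 other settings with adjusted p-values of up to 0.084.

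Flvcr2 (ENSMUSG00000034258, chr12:85746539-85813585, plus strand), a carrier related to Flvcr1, was close to the detection limit. Its levels were 0.294, 0.267 and 0.291 FPKM in vehicle-treated controls and 0.125, 0.121 and 0.220 FPKM in hemin-treated ones. In those labelled KO they were 0.297, 0.215 and 0.186 FPKM with vehicle and 0.159, 0.206 and 0.119 FPKM with hemin. The control groups did not overlap, the hemin libraries being lower, and those labelled KO did. These values rest on 5 to 17 fragments per library, and Flvcr2 was below the filter of the main test. With no filter on low values, its hemin difference in controls was -0.15 on the log2(FPKM + 1) scale (SE 0.05, limma adjusted p = 0.046) and passed. The other 4 comparisons did not pass in that setting. In a limma-voom fit of the recovered fragments that kept each gene reaching 10 fragments over all 12 libraries, an alternative chosen after seeing the data, the same difference was -0.85 on the log2 scale (SE 0.40, adjusted p = 0.12) and did not pass.

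Pgrmc1 (ENSMUSG00000006373, chrX:36598206-36606079, plus strand), a heme-binding membrane protein that partners with ferrochelatase and cytochromes P450, was the most abundant member without hemin. The controls rose from 44.3, 42.3 and 46.3 FPKM to 65.1, 64.4 and 76.6 FPKM. Those labelled KO rose from 35.8, 33.2 and 35.8 FPKM to 80.7, 79.6 and 76.4 FPKM. The colonoids labelled KO were below controls with vehicle, and with hemin replicate 3 of the controls reached them. The log2 difference was 0.62 in controls (SE 0.07, limma adjusted p = 4.4e-05) and 1.15 in those labelled KO (SE 0.07, limma adjusted p = 2.4e-07), and the interaction was 0.53 (SE 0.10, limma adjusted p = 0.0035). Under TPM neither the control rise of 0.43 (adjusted p = 0.093) nor the interaction of 0.40 (adjusted p = 0.47) passed. With Gm23935 left out of the sum both passed, the control rise at 0.52 (limma adjusted p = 0.0002).

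With vehicle, Pgrmc1 was 1.27-fold lower in those labelled KO (limma adjusted p = 0.0044), which under TPM was -0.19 on the log2 scale (adjusted p = 0.53). This difference passed with Gm23935 left out of the sum. With hemin the genotype difference was 0.20 (limma adjusted p = 0.055), and 0.28 (adjusted p = 0.0018) without replicate 3 of the controls. The gene is X-linked. The X-inactivation transcript Xist lay between 50.1 and 130 FPKM over the 12 libraries, and 4 Y-linked genes had 0 fragments in every library.

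Between genotypes with vehicle 5 of 9 tested members passed, Slc46a1 and Abcg2 higher and Hmox1, Pgrmc1 and Blvrb lower in the colonoids labelled KO, against 34.2% of all genes tested (17.4% higher and 16.8% lower). With hemin 3 passed, Hmox1, Slc46a1 and Blvrb, each higher, against 34.4% of all genes (19.7% higher and 14.7% lower). With an absolute log2 difference above 1 in addition, Hmox1 remained with vehicle (6.8% of all genes), and Hmox1 and Slc46a1 remained with hemin (6.01%). Slc46a1 fell below 1 in some other settings, to 0.93 at the lowest and to 0.96 without replicate 3 of the hemin-treated controls. The median log2 difference of the members was -0.03 with vehicle and 0.20 with hemin, beside 0.02 and 0.04 over all genes. Libraries of the 2 genotypes did not overlap for 6 of the 9 tested members with vehicle (57.5% of all tested genes) and for 3 with hemin (40.9%). Without replicate 3 of the hemin-treated controls, 6 members passed in each genotype comparison, and 45.7% of all genes passed with vehicle and 43.0% with hemin in that fit. The 2 vehicle-treated groups also serve in the hemin comparisons, so these counts are not independent of those.

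The interaction passed for 5 of the 9 tested members, against 23.8% of all genes (13.3% higher and 10.5% lower). Hmox1, Blvrb, Pgrmc1 and Flvcr1 responded more in the colonoids labelled KO, and Abcg2 responded less. With an absolute interaction above 1 in addition, Hmox1 and Blvrb remained (5.13% of all genes). Blvrb fell below 1 in some other settings, to 0.86 at the lowest, without replicate 3 of the hemin-treated controls. The median interaction of the tested members was 0.23, beside 0.02 over all genes. Leaving out replicate 3 of the hemin-treated controls gave 6, with Slc48a1 added (37.1% of all genes in that fit), and rescaling to TPM left 2, Hmox1 and Blvrb (7.14%).

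The order of the levels followed the same changes. In vehicle-treated controls it ran Pgrmc1, Hmox2, Slc48a1, Blvra, Hmox1, Blvrb, Abcg2, Slc46a1, Flvcr1 and Flvcr2 by mean FPKM, with overlapping ranges for the neighbours Hmox2 and Slc48a1 and for Abcg2 and Slc46a1. With hemin Hmox1 came first in both genotypes, ahead of Pgrmc1, Slc48a1 and Hmox2, and the ranges of Slc48a1 and Hmox2 still overlapped. Behind these in the hemin-treated controls came Blvra, Abcg2, Blvrb and Flvcr1, neighbours that overlapped one after the other, then Slc46a1 and Flvcr2. In the hemin-treated colonoids labelled KO, Blvrb came next and lay above Blvra without overlap, followed by Slc46a1, Abcg2 and Flvcr1, whose ranges and that of Blvra overlapped from one to the next. In vehicle-treated colonoids labelled KO, the order was Pgrmc1, Slc48a1, Hmox2, Blvra, Slc46a1, Abcg2, Blvrb, Hmox1, Flvcr1 and Flvcr2, with Hmox1 between Blvrb and Flvcr1 and overlapping both. Among the members, Flvcr1 and Pgrmc1 had the most similar course over the 4 groups, with a root mean square difference of 0.119 between their log2 differences to vehicle-treated controls. Hmox2 and Flvcr1 followed at 0.174, and Slc48a1 and Abcg2 at 0.195. Hmox1 was far from every other member.

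**Figure D4:**
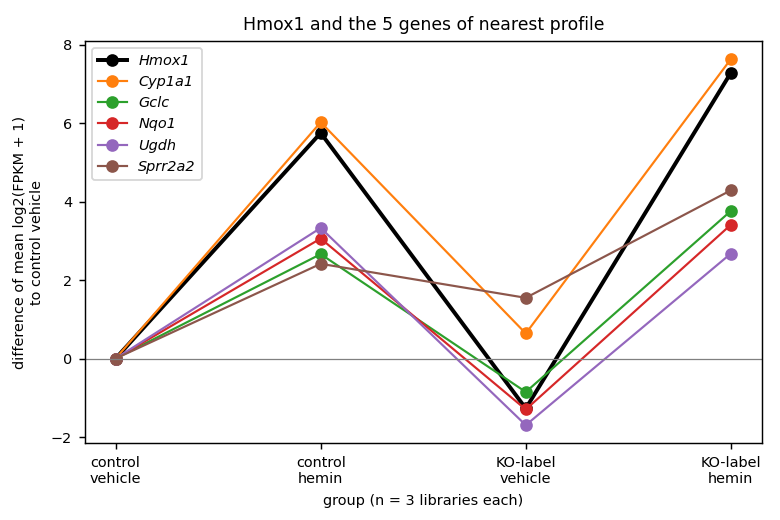
Mean log2(FPKM + 1) of Hmox1 (black) and of the 5 genes with the most similar course, as differences to vehicle-treated controls in the 4 groups of 3 libraries; the lines only join the groups of 1 gene. Cyp1a1 ends nearest to Hmox1, at 7.63 against 7.28 in hemin-treated colonoids labelled KO.

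The genes nearest to Hmox1 by that measure, over 3 differences per gene and among 8589 genes with a group mean of at least 5 FPKM, were Cyp1a1, Gclc, Nqo1, Ugdh and Sprr2a2. Cyp1a1, a cytochrome P450 of xenobiotic metabolism, was at a distance of 1.13. It lay at 0 to 0.105 FPKM in vehicle-treated controls, 63.4 to 71.6 FPKM in hemin-treated ones, 0.362 to 0.856 FPKM in vehicle-treated colonoids labelled KO and 198 to 215 FPKM in hemin-treated ones. Gclc, which catalyses the first step of glutathione synthesis, was at a distance of 2.71, with mean levels of 56.6, 365, 30.9 and 779 FPKM in the same order of groups. Nqo1, a quinone reductase, was at 2.72, with 33.4, 286, 13.0 and 364 FPKM. Ugdh, which makes the glucuronic acid donor for conjugation, was at 3.01, and Sprr2a2, a small proline-rich protein gene, at 3.06. Gclc, Nqo1 and Ugdh shared with Hmox1 a lower vehicle level in the colonoids labelled KO, while Cyp1a1 and Sprr2a2 did not. With a pseudocount of 0.1 only 2 of these 5 genes stayed among the nearest, which was then led by Mt3, and under TPM 4 stayed.

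Around these members, the genes of the remaining steps of heme handling were read from lists. Heme synthesis was mixed. Of 9 genes 8 were tested, and with hemin 4 rose and 4 fell in controls, and 3 rose and 2 fell in those labelled KO, beside the 49.9% and 60.4% of all genes that passed in these comparisons. Alas1, the first and rate-limiting enzyme outside the erythroid lineage, fell the most in both, by 0.99 and by 0.83 on the log2 scale (limma adjusted p = 4.9e-06 and 1e-05), from a mean of 14.5 to 6.82 FPKM in controls and from 12.3 to 6.47 FPKM in those labelled KO. Fech, ferrochelatase, which inserts iron into the porphyrin, rose by 0.65 in those labelled KO, and Urod rose most in controls, by 0.70. Among 7 porphyrin and heme carriers 5 were tested: 3 rose and 2 fell in controls, and 3 rose and 1 fell in those labelled KO, shares to be read against the same background. Hebp2, one of those that fell, entered the test through vehicle-treated libraries, where it is high. Of 4 extracellular scavengers and receptors Lrp1 alone entered the test, and it did so through the vehicle groups alone, so its difference is given as levels. Its means were 4.56 FPKM without and 0.405 FPKM with hemin in controls, and 2.25 and 0.198 FPKM in those labelled KO.

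Of 6 genes of electron supply, bilirubin conjugation and bilirubin export, 5 were tested. With hemin 3 rose in controls and 5 in those labelled KO, and none fell, where 23.2% and 29.9% of all genes passed as higher. Por, the reductase that feeds electrons to heme oxygenase, rose by 0.81 in those labelled KO (limma adjusted p = 2.5e-05), and in controls its difference was 0.22 (limma adjusted p = 0.075). The exporter Abcc3 rose by 1.71 in controls and by 2.75 in those labelled KO, from a mean of 38.2 to 127 FPKM and from 24.7 to 173 FPKM. Abcc2, another exporter of conjugates, was at 0.149 and 0.165 FPKM in the 2 control groups and at 0.235 FPKM in vehicle-treated colonoids labelled KO, and reached 2.76 FPKM with hemin there. It entered the test through that group alone, so it had to differ, and it is 1 of the 5 counted above. Ugt1a1, the enzyme that conjugates bilirubin, differed between those labelled KO and controls by -2.76 with vehicle and by -3.31 with hemin on the log2 scale, with means of 10.4 and 23.1 FPKM in controls against 0.684 and 1.42 FPKM. Members of the Ugt1a cluster share their last exons, so how reads were divided among them is uncertain.

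All 5 genes of iron handling after heme breakdown passed in both hemin comparisons, beside 49.9% and 60.4% of all genes. The ferritin chains rose the most: Fth1 by 1.62 in controls and by 3.28 in those labelled KO, and Ftl1 by 2.42 and by 3.53. Ferritin genes have near-identical pseudogene copies, among which reads can be split. The iron exporter Slc40a1 and the ferritin receptor Ncoa4 also rose in both. Tfrc, the transferrin receptor, fell by 3.28 in controls and by 1.56 in those labelled KO, from a mean of 63.4 to 5.66 FPKM and from 69.4 to 23.0 FPKM. The interaction was above 0 and passed for all 5, beside 13.3% of all genes higher, with a median of 1.11, against 0.02 over all genes tested. For Tfrc this sign means a smaller fall in those labelled KO, and for the other genes a larger rise.

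Of 9 genes that sense heme or control Hmox1, 8 were tested. With hemin 2 rose and 1 fell in controls, beside 49.9% of all genes that passed, and 3 rose and 1 fell in those labelled KO, beside 60.4%. Bach1, the heme-binding repressor of Hmox1, rose by 0.47 and by 0.77. Mafk, a small MAF partner, rose by 0.52 in controls and by 1.31 in those labelled KO, with an interaction of 0.78 (limma adjusted p = 0.0024). Nfe2l2, which encodes NRF2, differed between those labelled KO and controls by -0.82 with vehicle and by -0.94 with hemin, at means of 89.7 and 101 FPKM in controls against 50.4 and 51.5 FPKM. Its differences with hemin were 0.15 and 0.03 and did not pass. Nr1d2, a heme-binding nuclear receptor, fell with hemin by 0.65 in those labelled KO, while in controls its difference was 0.14, above 0 (limma adjusted p = 0.11). The interaction was -0.79 (limma adjusted p = 0.00021).

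**Figure D5:**
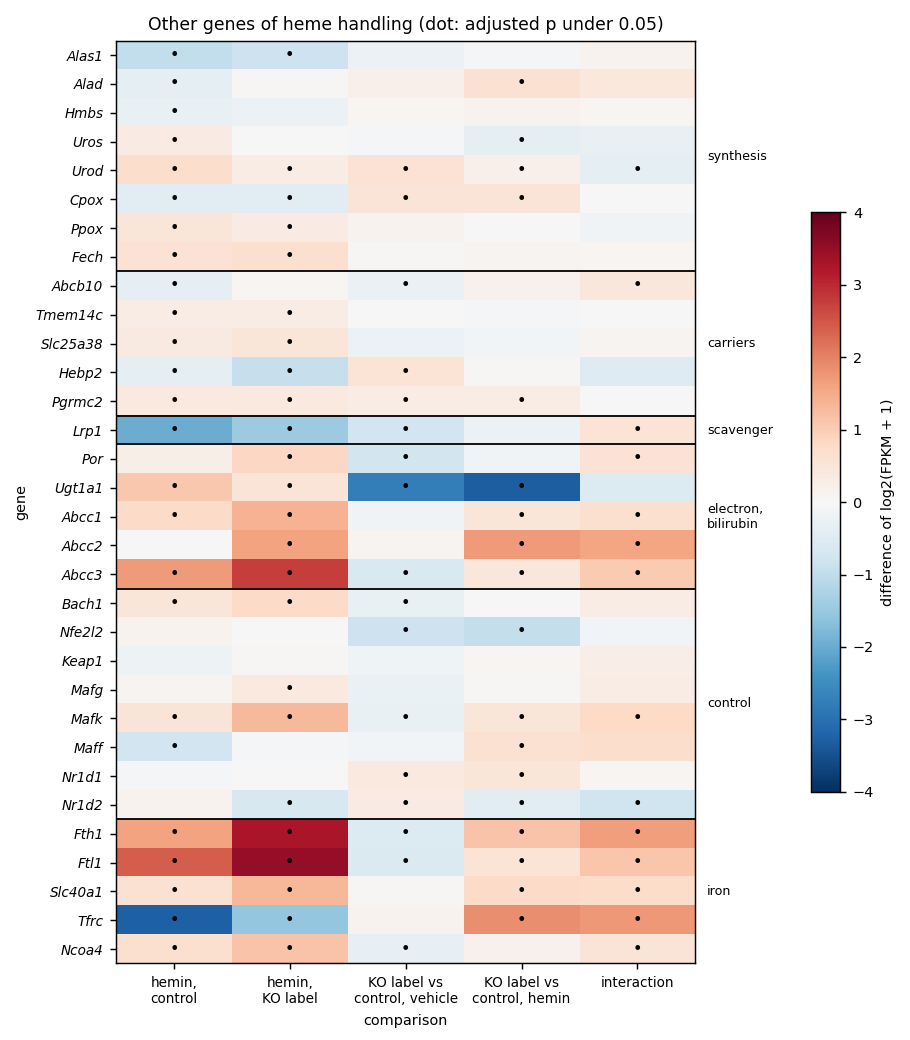
Log2 differences of the other tested genes of heme handling in the 5 comparisons (red higher, blue lower), grouped by list; a dot marks an adjusted p under 0.05. Fth1, Ftl1 and Abcc3 are the strongest reds of the hemin columns, Tfrc the strongest blue in controls, and Ugt1a1 the strongest blue of the genotype columns; Abcc2, Lrp1 and Hebp2 entered the test through the groups where they are high.

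Markers of cell states within the epithelium moved beside these results, where 23.2% of all genes passed as higher and 26.7% as lower with hemin in controls, and 29.9% and 30.4% in those labelled KO. Mki67 and Top2a, stem and cycling markers, fell with hemin in both genotypes. So did Lgr5, which entered the test through the vehicle groups, and Ascl2, whose levels in controls were mostly under 1 FPKM. The 4 genes had a summed level of 82.0 to 92.7 FPKM falling to 26.0 to 34.6 FPKM in controls and of 111 to 117 FPKM falling to 38.5 to 47.4 FPKM in those labelled KO. Of 4 goblet markers, 3 fell in controls and 4 in those labelled KO, with summed levels of 1138 to 1381 and 740.0 to 1090.0 FPKM without and with hemin in controls and of 1275 to 1326 and 234 to 289 FPKM in those labelled KO. The 5 colonocyte markers summed to 2229 to 2450 FPKM without and 4297 to 6691 FPKM with hemin in controls and to 1913 to 1962 and 3361 to 4204 FPKM in those labelled KO, where 3 rose and 2 fell in controls and 2 rose and 2 fell in those labelled KO. Car1 carried these sums. In those labelled KO against controls, 3 colonocyte markers passed as higher and 2 as lower with vehicle (17.4% and 16.8% of all genes), and 2 each way with hemin (19.7% and 14.7%). Car1 differed by -0.69 and -0.76, Krt20 by -0.70 with vehicle, and Slc26a3 by 1.32 with vehicle and by -0.39 with hemin. Aqp8, a water channel, had means of 44.0 and 10.3 FPKM without and with hemin in controls against 426 and 614 FPKM in those labelled KO, with genotype differences of 3.25 and 5.73. Car4 was at 1.87 FPKM in vehicle-treated controls and 58.0 FPKM in vehicle-treated colonoids labelled KO, a difference of 4.36. The 3 enteroendocrine markers had sums of 22.1 to 28.1 FPKM in vehicle-treated controls and 127 to 132 FPKM in vehicle-treated colonoids labelled KO. The part of these states in the levels of the members was not tested.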

How the data were processed

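The authors deposited 1 table of FPKM for 54532 genes in 12 colonoid libraries, made by Novogene. The submitters' processing notes name fastp, HISAT2 2.0.5, featureCounts 1.5.0-p3 and mm10. The strand setting is not given in the sources used here. All deposited FPKM were whole multiples of 1 fragment to within 0.01, and the values already carried a scaling between libraries.

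All further steps used R 4.3.3, limma 3.58.1, Python 3.11.15, pandas 2.3.3 and SciPy 1.17.1. A limma model of log2(FPKM + 1) held a mean for each of 4 groups, with trended moderation, 8 residual degrees of freedom and no block, after a filter of at least 1 FPKM in at least 3 libraries. Comparisons were hemin against vehicle in each genotype, genotype in each treatment, and the interaction. The self-test was run on simulated data. Named are all 10 members, the 5 genes nearest to Hmox1, and genes of fixed lists with the largest rise or fall or with a role a result turns on. Por, Abcc2 and Nr1d2, among others, were named with their values known. The members, lists and tests were chosen with earlier results of these data known. Coordinates matched GENCODE for the 10 members. Alternatives were another pseudocount, other filters, TPM with and without Gm23935, a replicate block, no trend, only the groups compared, limma-voom on recovered fragments, a threshold on the difference, and each library left out. A limma-voom fit of every gene with 10 or more fragments was added after seeing the data. Reads were not analysed here.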

Additional observations from a re-analysis of the deposited data

Results flagged for a closer look

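The hemin response differed between the genotypes by the interaction test of limma for 5 of the 9 tested members, beside 23.8% of all genes. The interaction was 2.81 on the log2 scale for Hmox1, 1.02 for Blvrb, 0.53 for Pgrmc1 and 0.46 for Flvcr1, which responded more in the colonoids labelled KO. It was -0.60 for Abcg2, which responded less there. Each gene's libraries kept apart between vehicle and hemin in both genotypes, except those of Blvrb in controls, as did 52.4% of all genes in controls and 74.4% in those labelled KO. For Hmox1 and Blvrb the interaction passed in all 21 other settings, for Pgrmc1 in 20 of 21, for Abcg2 in 17 of 21 and for Flvcr1 in 5 of 20. The Dixon test for outlying samples was not run, since each group holds 3 libraries and it has little power there.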

How the results depend on the processing

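Over all members, comparisons and other settings, 899 of 971 recomputed differences kept their direction and their side of the threshold. Rescaling to TPM shifted the median of all genes by -0.18 and -0.31 in the hemin comparisons of controls and of those labelled KO, by 0.14 between genotypes with vehicle and by -0.13 in the interaction. Under TPM 5 members passed with hemin in controls (3 higher and 2 lower), 5 in those labelled KO, 2 between genotypes with vehicle and 2 in the interaction (both higher). The share of all genes that passed under TPM was 31.4%, 46.3%, 17.8% and 7.14% in these comparisons. Without Gm23935 in the sum the member counts were 8, 7, 4 and 4, beside 50.4%, 60.0%, 35.0% and 23.6% of all genes. With no filter on low values 3 passed between genotypes with vehicle (16.8% of all genes) and 8 with hemin in controls (22.2%), with Flvcr2 in and Slc46a1 out, and limma-voom on recovered fragments gave 5 between genotypes with hemin (35.3% of all genes) and 7 with hemin in controls (6 higher and 1 lower, 50.4% of all genes). Requiring a log2 difference above 1 as well left 1 and 3 in the hemin comparisons, 1 between genotypes with vehicle and 2 in the interaction. The shares of all genes were 8.11%, 12.9%, 6.8% and 5.13%. With a mean FPKM of at least 5, Flvcr1 and Slc46a1 were not tested.

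Leaving out 1 library at a time gave 7 to 8 members with hemin in controls, 7 in those labelled KO, 3 to 6 between genotypes with vehicle, 3 to 6 with hemin, and 3 to 6 in the interaction. The share of all genes ranged over 43.2% to 56.6%, 54.2% to 68.8%, 27.2% to 45.7%, 27.4% to 43.0% and 18.5% to 37.1%. Between genotypes with vehicle the count fell to 3, without Abcg2 and Blvrb, when replicate 1 or 3 of the vehicle-treated controls or any replicate of the vehicle-treated colonoids labelled KO was left out. Between genotypes with hemin it rose to 6 without replicate 3 of the hemin-treated controls. The interaction count fell to 3, without Abcg2 and Flvcr1, when replicate 3 of the vehicle-treated controls, replicate 1 of the vehicle-treated or replicate 2 of the hemin-treated colonoids labelled KO was left out. The genes nearest to Hmox1 kept 2 of 5 with a pseudocount of 0.1.

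Differences that had not passed changed sign in 7 cases. Abcg2 with hemin in those labelled KO was -0.13 under TPM and -0.022 under TPM without Gm23935. Hmox2 between genotypes with vehicle was 0.11 and 0.027 in these settings and ranged from -0.11 to 0.042 with 1 library left out, above 0 without replicate 1 of the vehicle-treated controls, and its interaction was -0.026 under TPM. Blvra between genotypes with hemin ranged from -0.12 to 0.0027 with 1 library left out, above 0 without replicate 2 of the hemin-treated colonoids labelled KO. Causes of these changes were not tested.

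Same-numbered libraries did not deviate together (mean r -0.04, range -0.33 to 0.18 over 18 pairs). With the replicate number as a block 7, 7, 4, 3 and 4 members passed in the 5 comparisons, beside 46.9%, 57.8%, 31.2%, 31.0% and 20.1% of all genes, with Slc46a1, Blvrb and Flvcr1 each losing 1 call. Depth limits Flvcr2, with 5 to 17 fragments.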
